A study of Mus musculus with 2 samples.

Results

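The 7 chemokine genes described here were followed across the endothelial cells of the mouse ileum, the last stretch of the small intestine. They are Cxcl12, Ccl21a, Ccl25, Cxcl9, Cxcl10, Cxcl1 and Ccl2, chosen by gene symbol, and they take 8 of 31053 gene rows because Ccl21a has 2 rows. Cells came from wild-type male C57Bl/6 mice aged 8 weeks, with no treatment named in the labels. The sort left out cells with EpCAM, found on epithelium, or CD45, found on leukocytes, and took cells with CD31. Those without PDPN are blood endothelial cells and those with it are lymphatic endothelial cells. The data were 2 droplet libraries with the same labels, which form 1 group (n = 2), and no label says which of these sorts a single cell passed. Nor is it stated that the 2 were prepared from different animals. The p-values below therefore measure only how evenly groups of cells differ in the 2 libraries, against a spread partly pooled over genes. That spread may be technical, and differences between whole libraries are taken out.

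Chemokines are small secreted proteins that guide leukocytes by binding receptors on their surface, and many are held on the vessel wall by heparan sulfate. Homeostatic chemokines such as Cxcl12, Ccl21a and Ccl25 are made without inflammation and direct steady traffic of lymphocytes, dendritic cells and blood cell precursors. Inducible ones such as Cxcl9, Cxcl10, Cxcl1 and Ccl2 are switched on by interferons, inflammatory cytokines or stress and draw in T cells, neutrophils or monocytes.

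The smaller library (library 1) had 3806199 unique molecular identifiers (UMIs, counts of captured RNA molecules) over 1026 barcodes and the larger (library 2) 26645476 over 6302, with 2 barcodes in common. Filters left 974 and 6062 cells, with medians of 3368.5 and 3811.5 UMIs. Cells were put into 5 classes by UMIs of marker genes that include none of the chemokines. The lymphatic class (Mmrn1, Lyve1 and Prox1, at least 5 UMIs together) held 76 cells in library 1 and 976 in library 2. Blood cells (Flt1, Cd34, Plvap and Esam, at least 5) were split into venous (Ackr1, Selp and Madcam1, at least 4; 70 and 267 cells), arterial (Sema3g, Fbln5 and Stmn2, at least 3; 147 and 883 cells) and 2 capillary classes. The Plvap capillary class had more UMIs of Plvap than of Gpihbp1 and Aqp1 together (360 and 2361 cells), and the Gpihbp1/Aqp1 capillary class did not (231 and 1083 cells). Cells that met both the venous and the arterial rule (28 and 171), both the lymphatic and the blood rule (2 and 93) or neither (60 and 228) were left out. Lymphatic markers outside the rule, such as Pdpn and Flt4, summed to 5262 to 5979 CPM (UMIs of a gene per 1000000 UMIs of all genes) in the lymphatic class and to at most 134 in any blood class, and all 6 arterial markers outside the rule were highest in arterial cells. Of 6 venous markers 4 were highest in venous cells, while Nr2f2 (1032 and 1009 against 487 and 475 CPM) and Ephb4 were higher in lymphatic cells. Of 6 capillary markers 5 were highest in the Gpihbp1/Aqp1 class, and Kdr was highest in the Plvap class. The capillary sum, most of it Fabp4, did not set the Plvap class (8937 to 10195 CPM) apart from arterial cells (8908 to 10854 CPM), but Kdr (1574 and 1649 against 912 and 955 CPM) and Car4 (178 and 243 against 88.4 and 93.2 CPM) were higher in Plvap cells of both libraries. The arterial class was the least sharply bounded, since 46 and 263 cells of the 2 libraries lay at its threshold and 89 and 411 lay 1 UMI below it. Levels below are CPM of the UMIs summed over all cells of a class, with library 1 given first, and their intervals cover counting error only.

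Cxcl12, which binds Cxcr4 and retains lymphocytes and progenitor cells near its source, was the chemokine of arterial and capillary cells. It stood at 4457 and 3629 CPM in the Gpihbp1/Aqp1 capillary class, at 3369 and 3150 CPM in the Plvap capillary class, and at 2540 and 2233 CPM in the arterial class. Venous cells held 52.0 and 383 CPM and lymphatic cells 69.3 and 94.7 CPM. Every arterial and capillary value lay above every venous and lymphatic value in both libraries. Within each library the order of the top 3 classes was the same, but none of the 3 pairs passed the test, with a log2 difference of 0.19 ± 0.50 between Gpihbp1/Aqp1 and Plvap capillary cells (edgeR adjusted p = 0.850) and edgeR adjusted p of 0.728 and 0.544 for arterial cells against either.

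Among the 5 classes, the fold between the libraries in Cxcl12 was largest in venous cells. Library 1 had 17 UMIs in 11 of 70 venous cells, with a counting interval of 30.3 to 83.3 CPM, and library 2 had 599 UMIs in 102 of 267 cells, with an interval of 353 to 415 CPM. In library 2 the 5 venous cells with the most Cxcl12 held 187 of those UMIs. Cxcl12 was lower in venous than in other blood cells by a fitted log2 change of -3.37 ± 0.57 (10.3-fold, edgeR quasi-likelihood test with Benjamini-Hochberg adjustment, adjusted p = 0.0157). It was lower in lymphatic than in blood cells by -4.36 ± 0.67 (20.6-fold, edgeR adjusted p = 0.00549). Lymphatic and venous cells, next to each other in the order, did not differ by the test (log2 -1.84 ± 0.76, edgeR adjusted p = 0.137).

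After each cell was thinned to 1500 UMIs, Cxcl12 was seen in 93.9 and 92.9% of Gpihbp1/Aqp1 capillary cells, 88.2 and 91.1% of Plvap capillary cells and 76.6 and 80.2% of arterial cells. The share was 8.96 and 20.8% in venous and 7.94 and 12.6% in lymphatic cells. Droplets also hold free RNA, which gives UMIs in cells that do not express a gene. Ccl21a, a lymphatic gene, was seen in 0 to 4.48% of thinned blood cells by class, at unthinned median depths of 2999 to 5397 UMIs against 2894 and 2145 in lymphatic cells. The venous and lymphatic shares of Cxcl12 lay above that range. Cxcl12 had more UMIs over the 5 classes than Ccl21a (9552 and 57864 against 1612 and 14942), so it can give more free RNA. That range therefore gives no limit for Cxcl12, and how much of its venous and lymphatic shares is free RNA was not tested.

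**Figure D1:**
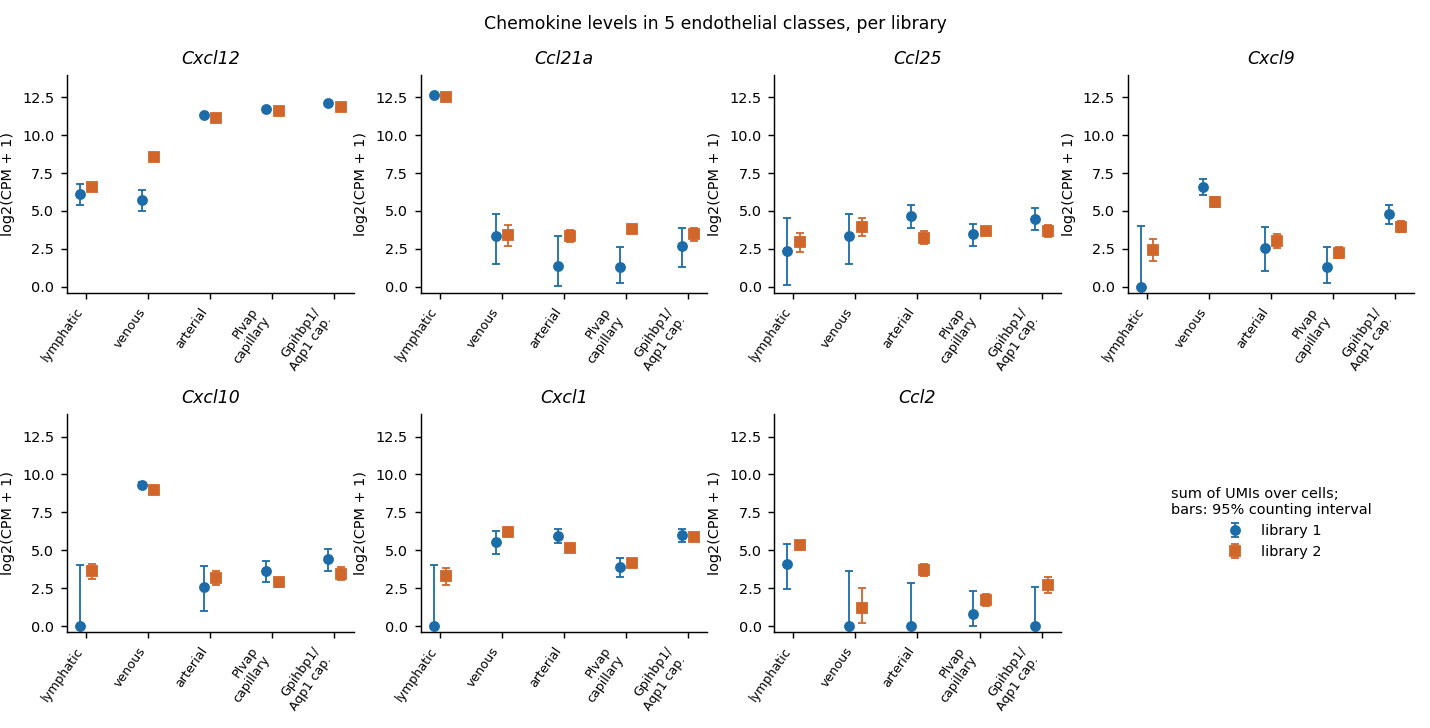
Level of each chemokine (y axis, log2 of CPM plus 1) in 5 endothelial classes (x axis), per library (blue circles library 1, orange squares library 2), with 95% exact Poisson counting intervals. Cxcl12 is high in arterial and both capillary classes, Ccl21a in lymphatic cells and Cxcl10 in venous cells, in both libraries.

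Ccl21a, the ligand of Ccr7 that leads dendritic cells and T cells into lymphatic vessels, was at 6533 and 5881 CPM in lymphatic cells. In the 4 blood classes it stood between 1.44 and 13.0 CPM. The lymphatic values lay above all blood values, by a log2 difference of 9.30 ± 0.21 (edgeR adjusted p = 7.70e-09). No pair of blood classes differed by the edgeR test. Lymphatic cells held 99.4 and 98.5% of all Ccl21a UMIs of the 5 classes, while they held 7.41 and 10.9% of UMIs of all genes. Thinned to 1500 UMIs, 96.8 and 91.1% of lymphatic cells had a Ccl21a UMI.

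The counted Ccl21a row is ENSMUSG00000094686 at chr4:42772860-42773993 on the minus strand (GRCm38). The second row, ENSMUSG00000095320 on the unplaced scaffold JH584294.1, had 0 UMIs in every class of both libraries, which allows up to 0.819 and 0.115 CPM over all cells (3 counts). Ccl21 genes are near copies of each other. Of the 780 stretches of 91 bases in the Ccl21a transcript, 424 (54.4%) also occur in that of Gm21541, so reads can be shared or lost between copies and the Ccl21a level is uncertain. Gm21541 itself had 8 and 52 UMIs in lymphatic cells against 1602 and 14711 of Ccl21a.

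Ccl25, the ligand of Ccr9 that brings gut-homing T cells and plasma cells to the small intestine, is made mainly by its epithelium. In these endothelial classes it was low throughout. It stood at 4.08 and 6.80 CPM in lymphatic, 9.18 and 14.7 in venous, 24.6 and 8.49 in arterial, 10.1 and 12.0 in Plvap capillary and 21.6 and 12.0 CPM in Gpihbp1/Aqp1 capillary cells. The lymphatic values were the lowest in each library, and no blood class was highest in both. The test put lymphatic below blood cells (log2 -0.98 ± 0.39, edgeR adjusted p = 0.0330), a call kept in 6 of 14 other settings. None of the 10 pairs of classes passed the edgeR test for Ccl25. The thinned shares were 0 to 2.92% and are not read as expression, since how much of them is free RNA was not tested. Ccl25 had 49 and 250 UMIs over the 5 classes against 1612 and 14942 of Ccl21a, so the Ccl21a range gives no limit for it. In library 2, 1 Plvap capillary cell carried 23 of the 125 Ccl25 UMIs of its class together with 211 UMIs of Epcam and 4713 of the epithelial gene Reg3b. Without it the class stood at 9.89 CPM of Ccl25, and its summed epithelial markers fell from 839 to 28.9 CPM.

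**Figure D2:**
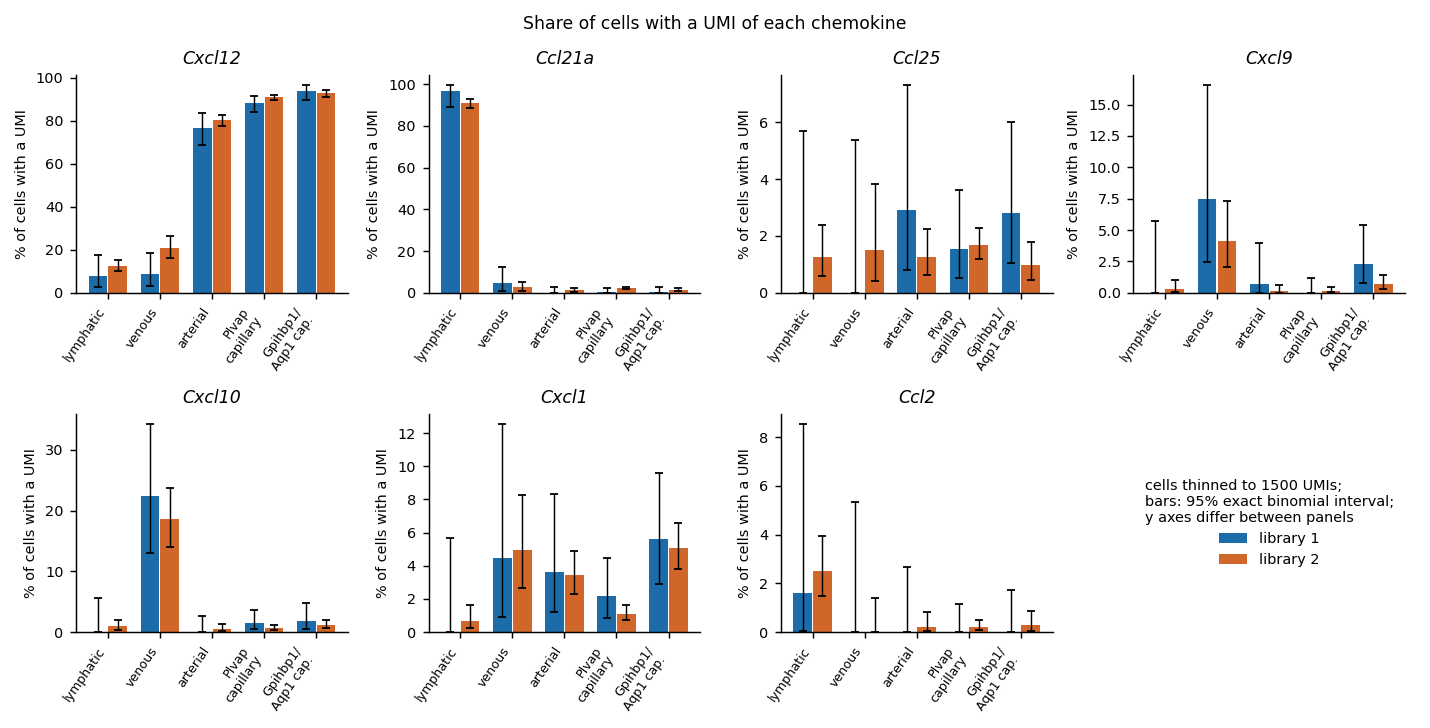
Percent of cells with at least 1 UMI of each chemokine (y axis, scale differs between panels) in 5 classes (x axis), after thinning every cell to 1500 UMIs, per library, with exact binomial 95% intervals. Cxcl12 and Ccl21a are seen in most cells of their classes, whereas Cxcl10 is seen in 22.4 and 18.6% of venous cells and the others in fewer.

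Cxcl9 and Cxcl10 bind Cxcr3 and recruit activated T cells and natural killer cells, and both are classic interferon-gamma targets. Their genes are neighbours on mouse chromosome 5 on the same strand, 18.6 kb apart, and Cxcl1 lies on that chromosome too. The upstream sequences of these 3 are shown because all 3 genes were higher in venous than in other blood cells in the fit, to very different degrees. Each is the 250 bases before the RefSeq transcript start (GRCm38.p6), 5′ to 3′ along the gene, for Cxcl10 chr5:92348890-92349139 (minus strand), for Cxcl9 chr5:92328080-92328329 (minus strand) and for Cxcl1 chr5:90890995-90891244 (plus strand). Capitals mark matches, on either strand, to the interferon-stimulated response element core (a pair of GAAA with 2 bases between), the interferon-gamma activated site TTCNNNGAA, the AP-1 site TGANTCA, the TATA box TATAAA or the NF-kB consensus.
Cxcl10: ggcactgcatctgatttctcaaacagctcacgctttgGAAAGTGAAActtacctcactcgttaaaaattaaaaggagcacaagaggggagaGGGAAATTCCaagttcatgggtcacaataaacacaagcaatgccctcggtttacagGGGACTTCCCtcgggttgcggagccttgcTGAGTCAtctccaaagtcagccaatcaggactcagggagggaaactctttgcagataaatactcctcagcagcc
Cxcl9: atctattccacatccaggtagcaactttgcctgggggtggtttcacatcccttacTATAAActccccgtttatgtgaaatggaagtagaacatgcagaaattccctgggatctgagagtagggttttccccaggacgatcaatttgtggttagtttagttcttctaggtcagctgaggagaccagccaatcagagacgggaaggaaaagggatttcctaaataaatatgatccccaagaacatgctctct
Cxcl1: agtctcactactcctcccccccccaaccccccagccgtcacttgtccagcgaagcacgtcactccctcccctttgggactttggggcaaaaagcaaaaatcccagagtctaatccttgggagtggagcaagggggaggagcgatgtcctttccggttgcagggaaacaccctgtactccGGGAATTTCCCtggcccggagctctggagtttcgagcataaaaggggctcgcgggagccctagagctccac

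The Cxcl10 window held an interferon-stimulated response element core at 213 to 204 bases before the start, NF-kB matches at 159 to 150 and 103 to 94 bases, and an AP-1 site at 74 to 68 bases. Cxcl1 held 1 NF-kB site at 71 to 61 bases, read as overlapping matches on both strands. Cxcl9 held only a TATA box match, at 195 to 190 bases before the start. Among 32851 windows of the same length, 2.98% held the response element core, 3.90% an NF-kB match, 6.75% an AP-1 site, 7.02% an interferon-gamma activated site and 12.4% a TATA box match. The windows of Cxcl12 and Ccl21a held none of the 5. RefSeq promoters were matched for 6 of the 7 genes. Such matches are letters in a window and show no binding.

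Cxcl10 was the venous chemokine. It stood at 624 and 505 CPM in venous cells, 4.91 and 8.04 in arterial, 11.5 and 6.34 in Plvap capillary, 20.3 and 9.93 in Gpihbp1/Aqp1 capillary cells, and 0 and 11.2 CPM in lymphatic cells. Both venous values were far above every other value. Venous cells exceeded other blood cells by a log2 difference of 6.08 ± 0.14 (67.4-fold, edgeR adjusted p = 4.32e-35). The remaining blood classes and the lymphatic class could not be told from each other, since none of the 6 pairs among them passed the edgeR test. Lymphatic cells were below the mean of the blood classes (log2 -1.32 ± 0.30, edgeR adjusted p = 0.000274), a call kept in 12 of 15 other settings. Of the 4 single blood classes, the venous class was the 1 that differed from lymphatic cells (log2 -5.87 ± 0.23, edgeR adjusted p = 1.10e-25).

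Cxcl10 UMIs were seen in a minority of venous cells, although a cell with 0 UMIs at this depth may still express the gene. In library 1, 204 UMIs lay in 17 of 70 venous cells, 151 of them in 5 cells, and in library 2, 789 UMIs lay in 79 of 267 cells with a highest cell of 66. Thinned to 1500 UMIs, 22.4 and 18.6% of venous cells and at most 1.87% of any other class had a Cxcl10 UMI. With the Cxcl10 UMIs of the highest cell of every class left out, the venous difference was 6.47 on the log2 scale.

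Cxcl9 was also highest in venous cells, at 94.9 and 47.3 CPM, with 27.0 and 14.5 CPM in the Gpihbp1/Aqp1 capillary class, 4.91 and 7.15 in arterial, 1.44 and 3.75 in Plvap capillary and 0 and 4.40 in lymphatic cells. In each library the venous value was the highest and the Gpihbp1/Aqp1 value came next. Venous cells exceeded other blood cells by a log2 difference of 3.11 ± 0.27 (8.62-fold, edgeR adjusted p = 7.84e-14), and Gpihbp1/Aqp1 exceeded Plvap capillary cells by 2.14 ± 0.35 (4.41-fold, edgeR adjusted p = 3.14e-06). Both neighbours in the order differed, venous from Gpihbp1/Aqp1 capillary (3.99-fold, edgeR adjusted p = 4.22e-07) and arterial from Gpihbp1/Aqp1 capillary (log2 -1.20 ± 0.37, edgeR adjusted p = 0.0170). Arterial, Plvap capillary and lymphatic cells did not differ from each other by the test.

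Cxcl9 UMIs were seen in few cells, and at these levels cells with 0 UMIs do not show how many express it. The venous UMIs were 31 in 6 cells and 74 in 20 cells, and the 39 UMIs of the Plvap capillary class in library 2 sat in 4 of 2361 cells. In the Gpihbp1/Aqp1 class of library 2, 1 cell held 32 of 57 UMIs. With the Cxcl9 UMIs of the highest cell of every class left out, the capillary difference was 1.84 on the log2 scale (edgeR adjusted p = 0.00169).

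Across the 10 class sums, Cxcl9 and Cxcl10 had a Pearson correlation of 0.89, as a description of 5 classes in 2 libraries. In single venous cells the libraries differed. Among thinned venous cells of library 1, Cxcl10 was seen in 3 of 5 with Cxcl9 and in 19.4% of those without, and in library 2 in 2 of 11 (18.2%) and in 18.6%.

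Cxcl1, a ligand of Cxcr2 that recruits neutrophils, was shared between venous, arterial and Gpihbp1/Aqp1 capillary cells. It stood at 45.9 and 72.9 CPM in venous, 60.6 and 34.0 in arterial and 62.2 and 57.5 CPM in Gpihbp1/Aqp1 capillary cells. Plvap capillary cells held 13.7 and 16.8 CPM and lymphatic cells 0 and 8.79 CPM, below all of the former values. In library 1, 24 of the 37 arterial UMIs came from 1 cell. Gpihbp1/Aqp1 exceeded Plvap capillary cells by a log2 difference of 1.72 ± 0.23 (3.29-fold, edgeR adjusted p = 2.50e-07). Lymphatic cells were below blood cells by -2.40 ± 0.32 (5.29-fold, edgeR adjusted p = 1.46e-07).

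Venous Cxcl1 was above other blood cells by 1.16 ± 0.21 on the log2 scale (2.23-fold, edgeR adjusted p = 7.05e-05), but on the scale of log2 of CPM plus 1 the difference was 1.16 in library 2 and 0.28 in library 1, where 2 of the other 3 blood classes were higher. With library 2 cut at random to the cell number of library 1 in each class, the difference was 0.23 (edgeR adjusted p = 0.736). Venous and Gpihbp1/Aqp1 capillary cells did not differ by the test (log2 0.42 ± 0.24, edgeR adjusted p = 0.211), nor did arterial and Gpihbp1/Aqp1 cells (edgeR adjusted p = 0.174). Venous cells did exceed arterial cells in the fit (log2 0.91 ± 0.25, edgeR adjusted p = 0.00795), although in library 1 the arterial value was the higher.

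Ccl2, the Ccr2 ligand that recruits monocytes, had its highest level in lymphatic cells. It stood at 16.3 and 39.2 CPM there, from 4 UMIs in 2 cells of library 1 and 98 UMIs in 28 cells of library 2. Blood classes held 0 to 12.1 CPM, and in library 1 all but 1 UMI was lymphatic. The lymphatic value was the highest in each library, by a log2 difference of 3.38 ± 0.33 (10.4-fold, edgeR adjusted p = 3.47e-13). Of thinned cells, 1.59 and 2.51% of the lymphatic class and at most 0.293% of any blood class had a Ccl2 UMI. These shares are not read as expression, since how much of them is free RNA was not tested. Ccl2 had 5 and 200 UMIs over the 5 classes against 1612 and 14942 of Ccl21a, so the Ccl21a range gives no limit for it. In library 2, 5 lymphatic cells held 44 of the 98 Ccl2 UMIs. The sum of 5 myeloid markers was also highest in lymphatic cells, at 48.9 and 52.4 CPM against 14.9 to 24.6 CPM in blood classes. Of these markers C1qa stood at 8.16 and 23.2 CPM, and Csf1r and Itgax were at 0 in library 1. Lyz2 gave 36.7 CPM of the library 1 sum. Cd68 went the other way and was lower in lymphatic cells than in every blood class of both libraries. In library 1 it stood at 4.08 against 10.8 to 24.6 CPM. Without cells carrying markers of other cell types the lymphatic difference of Ccl2 was 5.32 on the log2 scale (edgeR adjusted p = 1.89e-16). Arterial cells exceeded capillary cells in the fit (log2 1.70 ± 0.38, edgeR adjusted p = 0.000665), but this came from library 2 alone, where 54 UMIs lay in 7 of 883 cells and 34 of them in 1 cell. Library 1 had 0 arterial UMIs, which allows up to 4.91 CPM. The arterial call was kept in 6 of 14 other settings and turned to -1.87 without cells carrying markers of other cell types. Fibroblast markers summed to 18.0 CPM in arterial cells of library 1 and to 434 CPM in those of library 2.

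**Figure D3:**
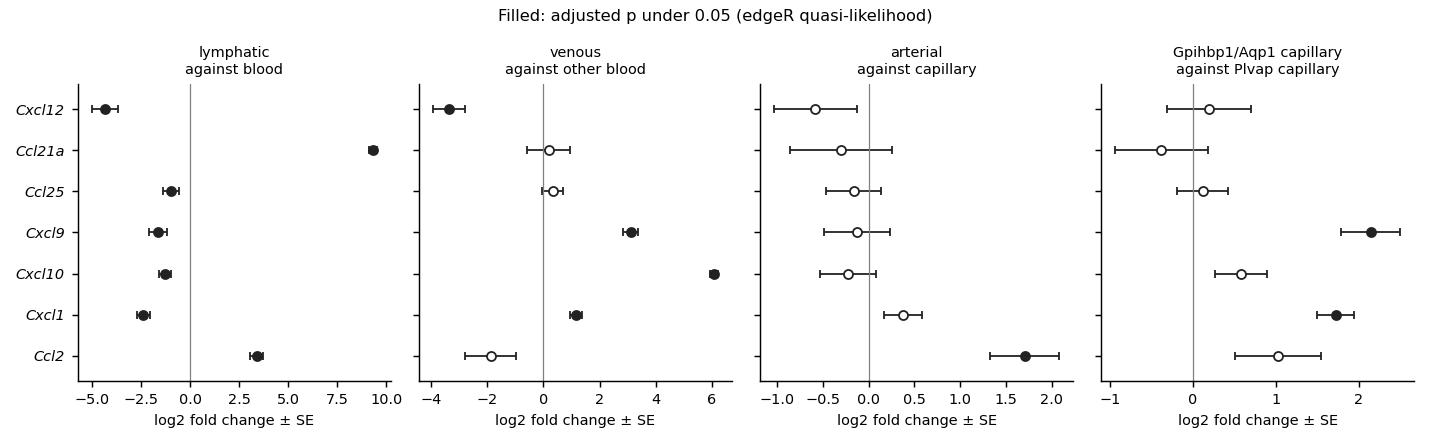
Fitted log2 fold change with its standard error (x axis) of the 7 chemokines (y axis) in 4 comparisons of classes, filled where the edgeR adjusted p is under 0.05. Ccl21a and Ccl2 lie to the lymphatic side, Cxcl9, Cxcl10 and Cxcl1 to the venous side, and Cxcl12 is negative in both.

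Of the 8 rows 7 were tested, and all 7 passed in the lymphatic comparison, where 51.3% of 10560 genes passed. There 2 chemokines were higher, against 25.2% of genes, and 5 lower, against 26.1%. In the venous comparison 3 were higher, against 14.3% of genes, and 1 lower, against 11% (25.3% in either direction). In the arterial comparison 1 was higher, against 7.2% of genes, and 0 lower, against 3.34% (10.5% in all). Between the capillary classes 2 were higher in Gpihbp1/Aqp1 cells, against 11.8% of genes, and 0 lower, against 13.6% (25.4% in all). Between pairs of classes, edgeR called 40.5, 46, 51.2 and 46.4% of genes for lymphatic against venous, arterial, Plvap and Gpihbp1/Aqp1 capillary cells, and 21.7, 22.3 and 27.9% for venous against the other 3 blood classes in that order. For arterial against Plvap and Gpihbp1/Aqp1 capillary cells it called 13.1 and 16.6%. The second Ccl21a row did not enter any test. With so many of all genes called, these counts are no result about the chemokines.

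The interferon and NF-kB gene lists were also compared between classes. In venous against other blood cells, 14.3% of all genes were higher and 11% lower. Of 24 tested interferon-gamma response genes, 19 were higher and 1 lower in venous than in other blood cells, with a median log2 change of 1.06 against -0.02 over all genes. Guanylate-binding protein genes led them, with Gbp5 at log2 2.56 ± 0.12 and Gbp6 at 2.36 ± 0.51. Of 20 NF-kB target genes, 18 were higher in venous cells, with a median of 1.26. The adhesion genes Vcam1 (log2 4.91 ± 0.14) and Icam1 (3.30 ± 0.08), which hold leukocytes on the vessel wall, were among them. Vcam1 was also among the 6 venous markers that checked the class name. Venous cells were chosen by Ackr1, Selp and Madcam1, and whether that choice favours the genes of these lists was not tested. In lymphatic against blood cells, 10 interferon-gamma genes were higher and 6 lower (median 0.17), and 13 of 20 NF-kB targets were lower. Over all genes 25.2% were higher and 26.1% lower there, so the 6 lower interferon-gamma genes lie near the share of all genes.

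Venous cells were divided by Sele, the endothelial selectin of cytokine-activated venules, into cells with at least 2 UMIs (29 and 120 cells) and the rest (41 and 147 cells). Cxcl10 stood at 1082 and 856 CPM in Sele-high and at 237 and 181 CPM in Sele-low cells. The groups did not overlap, and the log2 difference was 2.28 ± 0.18 (4.85-fold, edgeR adjusted p = 7.34e-31). Cxcl1 stood at 73.5 and 124 CPM in Sele-high and at 22.6 and 25.8 CPM in Sele-low cells, a log2 difference of 2.23 ± 0.33 (4.70-fold, edgeR adjusted p = 8.69e-09). Library 1 had 11 and 4 Cxcl1 UMIs behind these values.

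Cxcl9 did not follow Sele in the same way. It stood at 73.5 and 60.0 CPM in Sele-high and at 113 and 35.6 CPM in Sele-low cells, so the libraries moved in opposite directions (log2 0.35 ± 0.32, edgeR adjusted p = 0.729). Cxcl12 was at 33.4 and 308 against 67.8 and 452 CPM (log2 -0.51 ± 0.22, edgeR adjusted p = 0.231). Of the 4 chemokines tested, 2 were called, where 3.33% of 6117 genes were. The same division raised 10 of 18 NF-kB targets and 7 of 22 interferon-gamma genes. Sele-high cells were deeper, with means of 5162 and 6250 against 4317 and 5537 UMIs. Thinning cells to 2000 UMIs and classing and dividing them anew gave other groups, of 19 and 120 Sele-high and 57 and 214 Sele-low cells. Between those groups Cxcl10 differed by 1.83 (edgeR adjusted p = 0.0228) and Cxcl1 by 1.19 (edgeR adjusted p = 0.304) on the log2 scale.

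**Figure D4:**
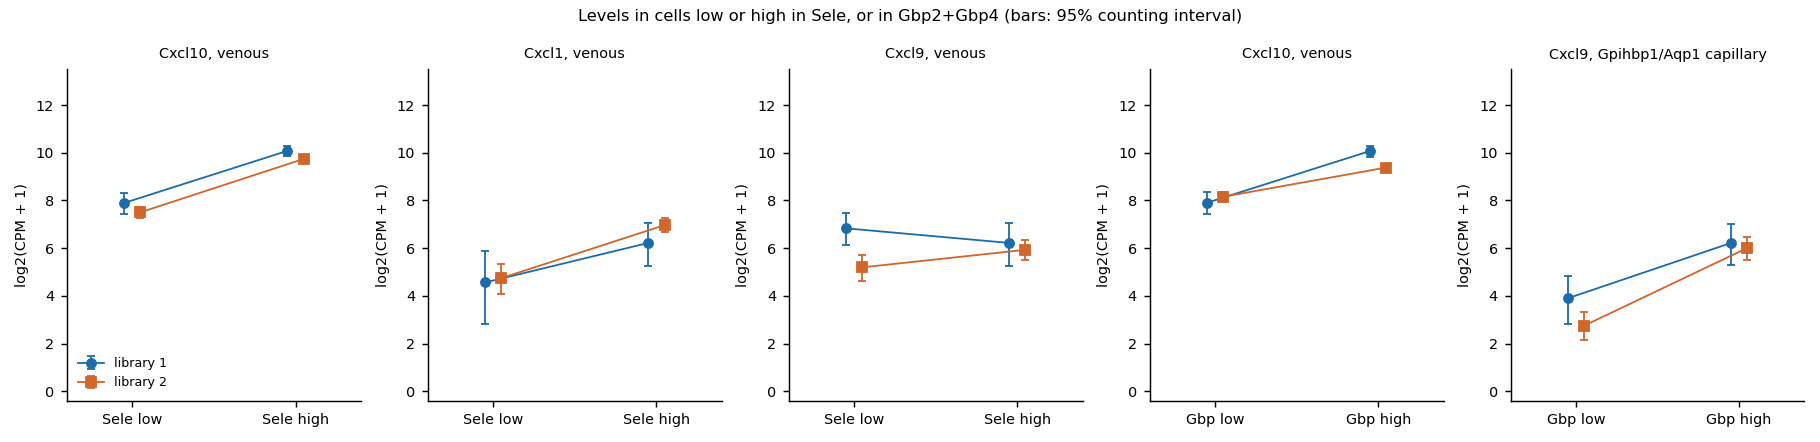
Level (y axis, log2 of CPM plus 1) of Cxcl10, Cxcl1 and Cxcl9 in venous cells low or high in Sele, and of venous Cxcl10 and Gpihbp1/Aqp1 capillary Cxcl9 in cells low or high in Gbp2 and Gbp4 (x axis), lines joining a library, bars 95% counting intervals. Cxcl10 and Cxcl1 are higher in Sele-high cells of both libraries, while Cxcl9 falls in library 1 and rises in library 2.

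Cells of each class were also divided by Gbp2 and Gbp4, interferon-gamma induced GTPase genes, into those with at least 3 UMIs together and the rest. In venous cells Cxcl10 stood at 1077 and 666 CPM in Gbp-high and 238 and 284 CPM in Gbp-low cells, with no overlap (log2 1.54 ± 0.17, edgeR adjusted p = 4.74e-09). It was the 1 chemokine of 7 called there, where 0.381% of 9451 genes were. Gbp-high venous cells were deeper, with 5783 and 6491 against 4008 and 5169 UMIs on average. On cells thinned to 2000 UMIs, then classed and divided anew, 12 and 63 venous cells were Gbp-high. The difference was 0.85 between those groups (edgeR adjusted p = 0.0163). DESeq2 gave a like difference of 1.73 that did not pass (DESeq2 adjusted p = 0.534).

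Cxcl9 followed Gbp in the Gpihbp1/Aqp1 capillary class, at 73.4 and 63.3 CPM in Gbp-high and 13.9 and 5.71 CPM in Gbp-low cells (log2 3.12 ± 0.64, edgeR adjusted p = 0.0470). The groups did not overlap, but with the Cxcl9 UMIs of the highest cells left out the difference was 1.53 (edgeR adjusted p = 1). The call was kept in 3 of 10 other settings. This was the 1 chemokine of 7 called in that class, where 0.349% of genes were. In the Plvap capillary class the Cxcl9 call (log2 3.98 ± 0.84, edgeR adjusted p = 0.0482, 0.423% of genes called) rested on 1 and 31 Gbp-high UMIs and was kept in 6 of 11 other settings. In arterial cells the Cxcl10 call (log2 2.37 ± 0.55, edgeR adjusted p = 0.0227, 0.328% of genes called) came from library 2, at 24.0 against 3.70 CPM, while library 1 had 0 UMIs in Gbp-high cells, which allows up to 32.0 CPM, against 5.80 CPM. It was kept in 5 of 9 other settings. Venous Cxcl9 was at 79.8 and 66.5 against 108 and 21.2 CPM, again in opposite directions (edgeR adjusted p = 0.927).

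In lymphatic cells 0 of 7 chemokines were called in the Gbp division by edgeR, where 0.381% of genes were, 0 had an unadjusted p under 0.05 and DESeq2 called 0 of the 3 to which it gave an adjusted p. Cxcl10 there stood at 0 and 8.25 CPM in Gbp-high and 0 and 12.7 CPM in Gbp-low cells, and 11 of 22 interferon-gamma genes, Cd274 and Gbp8 among them, were higher. The test of whether the lymphatic change differs from that in blood cells called 0 of 7 by edgeR, where 0.0317% of genes were, with 2 at an unadjusted p under 0.05 and 0 by DESeq2, and gave Cxcl10 a log2 difference of -1.89 ± 0.72 (edgeR adjusted p = 1).

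Immediate early genes such as Fos and Egr1 respond within minutes to signals and to tissue handling. Each class was divided at its median share of UMIs from 20 such genes into an upper and a lower group of cells. Their summed level was 7259 and 7017 CPM in lymphatic cells and 19047 to 24438 CPM in the blood classes. Lymphatic Ccl2 stood at 31.6 and 77.8 CPM in the upper group and 0 and 3.83 CPM in the lower group, a log2 difference of 4.49 ± 0.64 (edgeR adjusted p = 5.45e-07). The upper groups held 4 and 93 Ccl2 UMIs and the lower groups 0 and 5, and the 0 of library 1 allows up to 25.3 CPM. It was the 1 chemokine of 7 called in lymphatic cells, where 0.815% of 9817 genes were, together with 5 of 20 NF-kB targets such as Nfkbiz and Icam1.

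Cxcl1 followed the same division in other classes. In the Gpihbp1/Aqp1 capillary class it stood at 109 and 79.0 CPM in the upper and 8.70 and 34.4 CPM in the lower group (log2 1.68 ± 0.35, edgeR adjusted p = 0.00478), with 1 of 7 chemokines and 2.25% of genes called. In arterial cells it stood at 107 and 53.1 against 16.1 and 14.5 CPM (log2 2.22 ± 0.41, edgeR adjusted p = 0.00222). The groups did not overlap in Cxcl1 in either class, and the arterial call was kept in 9 of 11 other settings. Arterial Ccl2 was called as well (log2 3.99 ± 0.74, edgeR adjusted p = 0.000210), from 51 and 3 UMIs of library 2, and was kept in 3 of 9 other settings, so that 2 of 7 were called where 1.84% of genes were.

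Venous Cxcl1 did not move with the immediate early share, at 44.7 and 72.7 against 47.4 and 73.1 CPM, and venous Cxcl10 moved in opposite directions in the 2 libraries. In venous cells edgeR called 0 of 7 chemokines and 0.367% of genes, with 0 chemokines at an unadjusted p under 0.05 and 0 called by DESeq2 of the 3 to which it gave an adjusted p. In Plvap capillary cells edgeR called 0 of 7 and 2.55% of genes, with 1 chemokine, Cxcl1, at an unadjusted p under 0.05 and 0 called by DESeq2 of 5 with an adjusted p. Cxcl12 differed between the upper and lower groups by at most 0.49 on the log2 scale in any class and was not called. Whether tissue handling plays a part in the Ccl2 and Cxcl1 differences was not tested.

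**Figure D5:**
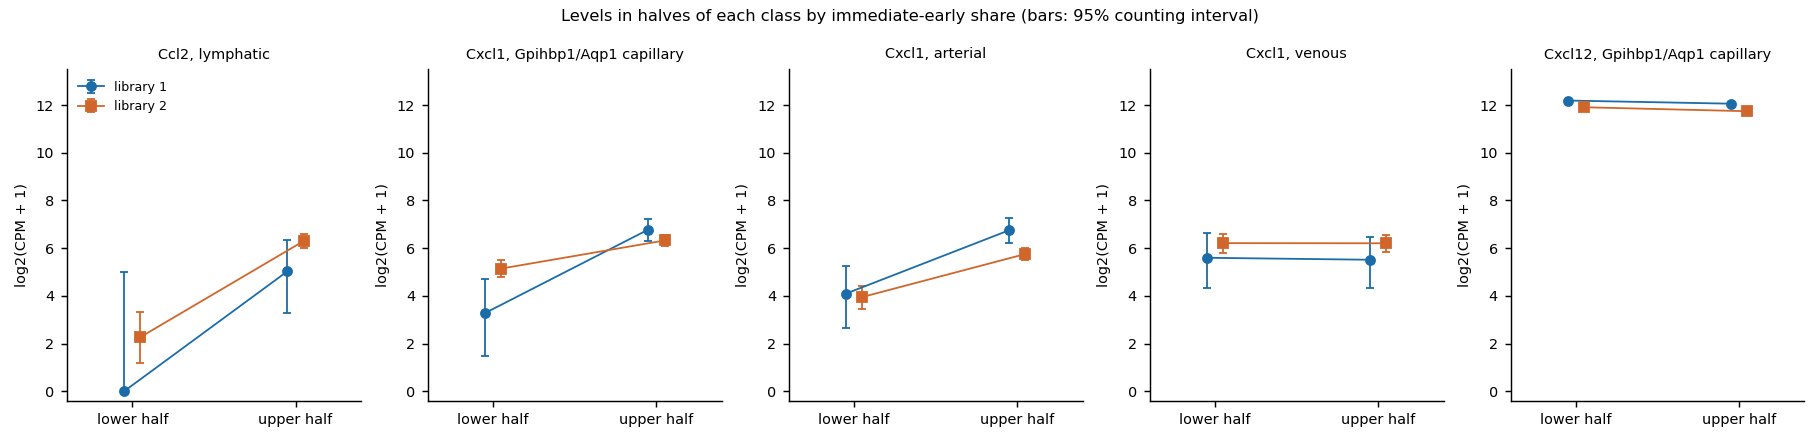
Level (y axis, log2 of CPM plus 1) in the lower and upper group of cells by immediate early share (x axis), for lymphatic Ccl2, for Cxcl1 in 3 blood classes and for Cxcl12 in Gpihbp1/Aqp1 capillary cells, lines joining a library, bars 95% counting intervals. Ccl2, and Cxcl1 in capillary and arterial cells, are higher in the upper group of both libraries, while venous Cxcl1 and capillary Cxcl12 stay level.

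Among 33 other chemokine ligands, 32 were in the files (29 with 1 row and 3 with 2 rows) and 5 passed the expression filter. Cxcl16, a membrane-bound ligand of Cxcr6, was highest in venous cells at 24.5 and 74.2 CPM (log2 2.89 ± 0.24 against other blood cells, edgeR adjusted p = 9.81e-15). Cx3cl1, the membrane-bound ligand of Cx3cr1, was highest in arterial cells at 57.3 and 35.8 CPM (log2 0.98 ± 0.20 against capillary cells, edgeR adjusted p = 0.000278). Of the 5 ligands, 1 was higher and 2 lower in lymphatic cells, against 25.2 and 26.1% of all genes. In venous cells 2 were higher and 1 lower, against 14.3 and 11% of all genes. With 5 genes these counts are no result about the ligands.

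Of 22 receptors, 4 could be tested. Cxcr4, the Cxcl12 receptor, stood at 22.9 to 40.7 CPM in arterial and capillary classes and at 0 to 1.92 CPM in venous and lymphatic cells (log2 -4.10 ± 0.52 in venous against other blood cells, edgeR adjusted p = 2.81e-09). Ackr3, which takes up Cxcl12 without signalling through G proteins, was seen in all 5 classes. It was highest in venous cells at 380 and 353 CPM (log2 0.80 ± 0.10 against other blood cells, edgeR adjusted p = 6.68e-09). Plvap capillary cells came next at 305 and 313 CPM, and the other classes held 159 to 218 CPM. Ackr2, a scavenger of inflammatory chemokines that include Ccl2, stood at 89.7 and 102 CPM in lymphatic cells and at 0 to 0.447 CPM in blood cells (log2 9.79 ± 0.37, edgeR adjusted p = 6.44e-30).

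The genes most like each chemokine over the 10 sums were found among 7594 genes, as a description in which the points share 2 libraries and 5 classes. They were Antxr2, Reln and Frmd6 for Ccl21a (Pearson r of 0.99 each), Hlx, Mcf2l and Acads for Cxcl12 (0.99 each), and Map3k14, Sidt2 and Rasgef1a for Cxcl10 (0.97 each). Cxcl1 was most like Adipor2, Ass1 and Gstm2 (0.96 each), and Cxcl9 most like Mxra8 (0.94), Rnf213 (0.94) and Zfp945 (0.93). Ccl2 and Ccl25 did not reach 20 CPM in 1 class of both libraries and were left out.

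Markers of other cell types moved with some classes. Summed T cell markers were 28.5 to 32.4 CPM in lymphatic and 0 to 3.13 CPM in blood classes. In lymphatic cells of library 1 only Cd2 of the 5 was seen, with Ptprc, Cd3e, Cd3g and Trac at 0. Summed fibroblast markers were 62.2 to 513 CPM, mural cell markers 180 to 390 CPM and red cell markers 2.70 to 2143 CPM in the Gpihbp1/Aqp1 capillary class, which was high in Cxcl12, Cxcl9 and Cxcl1. In the Plvap capillary class the fibroblast sum was 16.6 to 166 and the mural sum 30.3 to 67.7 CPM, and in the arterial class they were 18.0 to 434 and 155 to 318 CPM. Without cells that carry markers of another cell type, the capillary difference of Cxcl1 was 1.61 and that of Cxcl9 1.79 on the log2 scale, both still called by edgeR. Of the 24 chemokine calls in the 4 main class comparisons and the Sele, Gbp and immediate early divisions, 16 were kept without such cells. Among them were 12 of the 14 calls of the main class comparisons, and calls between pairs of classes were not checked in this way. Those not kept were lymphatic Ccl25, arterial Ccl2 in both of its comparisons, Cxcl1 between Sele states (log2 1.44, edgeR adjusted p = 0.135), Cxcl1 between immediate early groups of arterial cells, and the Gbp calls outside venous cells. Cells with 2 or more UMIs of such markers together were left out, and Krt19 was among the markers. Of 70 and 267 venous cells 63 and 166 remained, and of 29 and 120 Sele-high cells 25 and 62. What part the loss of cells and counts had in the calls not kept was not tested. Red cell markers were not used to leave out cells, and their part in these results was not tested. Epithelial markers summed to 55.1 and 106 CPM in venous cells, of which Krt19 alone gave 45.9 and 85.0 CPM, with Epcam at 0 in both libraries.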

How the data were processed

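Endothelial cells sorted from the ileum were profiled as 2 droplet libraries (Chromium Single Cell 3' v3). Per the submitters' processing notes, bcl2fastq 2.2, Cell Ranger 3.1.0 and the build mm10 were used. The authors deposited whole-number UMI counts per gene and cell, not normalized, in 31053 gene rows. The treatment of reads shared by near-identical genes was not stated in the sources used.

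Cells under 500 genes or over 15% mitochondrial UMIs were dropped, and doublets called per library by Scrublet in scanpy 1.11.5 (4 and 5 cells) were removed. It marked 0.0824% of library 2, so the caller is taken not to have worked there, and a fit without the highest 5% of doublet scores was made. Classes follow the marker rule in the report. Raw UMIs were summed per library and class (10 sums) and tested with edgeR 4.0.16 in R 4.3.3 (TMM, filterByExpr with a minimum count of 10, robust quasi-likelihood test, library as a block), with Benjamini-Hochberg adjustment over all genes within a contrast at 0.05. Genes that define a class or state were not tested. Standard errors were taken from the fold change and its F statistic. States used 20 sums (Gbp, immediate early) or 4 sums (Sele, 1 residual degree of freedom). The Sele p-values therefore rest almost wholly on the spread pooled over genes. All sums of 1 library share its sample, so the library number pairs them.

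Levels are CPM with exact Poisson intervals (95%) and shares have exact binomial ones. To compare shares, each cell was thinned to 1500 UMIs. A level of 0 allows up to 3 counts. Alternatives were DESeq2 1.42.0, other scaling, no low-count filter, no replicate block, 1 library left out, and stricter cell and doublet filters. Class and state thresholds were also changed. Cells were thinned to 2000 UMIs and then put into classes and states anew by the same rules. For equal cells, library 2 was cut at random to the cell number of library 1 in each class. Cells with at least 2 UMIs together of markers of other types, red cell markers apart, were also removed. After the data were seen, 2 more were added. They kept cells meeting the venous and arterial rules as venous, or took out the UMIs of each chemokine in its highest cell of every sum. The tests were tested on simulated data. Promoter windows are RefSeq's (GRCm38.p6) and gene positions are from GRCm38.

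The chemokines, gene lists and rules were chosen with earlier results of these data known. Named genes were the 7 chemokines, the 3 genes of highest correlation with each one that reached 20 CPM in 1 class of both libraries, and up to 4 called genes per list and contrast with the largest change.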

Additional observations from a re-analysis of the deposited data

Results flagged for a closer look

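Cxcl1 was higher in cells that met both the venous and the arterial rule, which entered no comparison, than in any of the 5 classes. It stood at 206 CPM in library 1 and 101 CPM in library 2, against 62.2 and 72.9 CPM in the highest class. In library 1 all 44 UMIs lay in 2 of 28 cells, and in library 2 138 UMIs lay in 22 of 171 cells, 97 of them in 5 cells. These cells had median depths of 7900.5 and 7684 UMIs. Arterial markers outside the rule summed to 178 and 224 CPM in them, against 150 to 200 CPM in venous and 1607 to 1776 CPM in arterial cells, and venous markers to 4741 and 4568 CPM, against 3866 to 4368 CPM in venous cells. B lineage markers summed to 9.37 and 5114 CPM, and their part in the Cxcl1 level was not tested.

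Ccl25 was higher in the cells of no class than in any class, at 31.1 and 155 CPM against 24.6 and 14.7 CPM. Library 1 had 4 UMIs in 4 of 60 cells, and its counting interval of 8.47 to 79.6 CPM covers the 24.6 CPM of the highest class. Library 2 had 197 UMIs in 11 of 228 cells, and the cell with the most held 51 of them beside 80 UMIs of Epcam and 2346 of Reg3b. Without that cell Ccl25 stood at 119.7 CPM and the epithelial markers summed to 15856 CPM.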

How the results depend on the processing

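In the 4 main class comparisons and the Sele, Gbp and immediate early divisions, 24 chemokine differences passed the main test. Pairs of classes are left out here. Of the 24 differences, 12 kept direction and call under every alternative with a test. Among 309 alternative values, 260 kept both, 44 lost the call and 5 turned direction. The cause of these changes was not tested. For arterial against capillary cells, Ccl2 turned to -1.87 without cells with markers of other types and to -4.41 on cells thinned and classed anew. With equal cells in the 2 libraries it turned to -2.61. With 1 library left out it ranged from -0.39 to 1.48 (log2 of CPM plus 1). The lower value there comes from 0 arterial UMIs and gives no direction. Arterial Ccl2 between immediate early groups turned to -2.35 without cells with markers of other types. Arterial Cxcl10 between Gbp states ranged from -2.77 to 2.41 with 1 library left out, where the lower value comes from 0 UMIs that allow up to 32.0 CPM and gives no direction. Gpihbp1/Aqp1 capillary Cxcl9 turned to -0.15 with 5 UMIs as the Gbp threshold.

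The lymphatic comparison called 5416 genes, or 2867 with equal cells in the 2 libraries. The arterial one called 1113 genes, or 501 by DESeq2, 530 without the replicate block, 741 on thinned cells and 561 with equal cells. It called 1 chemokine, but 0 by DESeq2, without the replicate block, with the stricter cell filter or without the highest doublet scores, and 2 with thresholds raised by 2. The capillary comparison called 2682 genes, or 1344 by DESeq2, 1408 without the replicate block and 1643 with equal cells. The Gbp comparison called 176 genes, or 297 without the low-count filter, 63 by DESeq2, 11 without the replicate block, and 70 on thinned cells and 236 with the other threshold over the classes that kept 10 cells (109 in the main fit). Its 4 chemokine calls became 0 by DESeq2, which gave 1 of them no adjusted p, and 1 without the replicate block. They became 2 with the stricter cell filter, without the highest doublet scores or without the chemokine UMIs of the top cells. Without cells with other markers 1 was left. The Sele comparison called 204 genes, or 18 by DESeq2, 14 without the replicate block, 34 without cells with other markers and 2 on thinned cells. Its 2 chemokine calls became 1 by DESeq2 (1 had no adjusted p), without cells with other markers and on thinned cells. The immediate early comparison called 768 genes, or 426 by DESeq2, 184 without the replicate block and 1363 between the upper and lower 25%, and its 4 chemokine calls became 2 by DESeq2, where the other 2 had no adjusted p, and 2 without cells with other markers.

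Without scaling, the median change of all genes moved by -0.17 in the venous and 0.13 in the capillary comparison, and the higher share of calls from 56.5 to 37.9% and from 46.5 to 63.9%. Between immediate early groups of Plvap capillary cells it moved from 88.4 to 76.9%. Some calls were gained: arterial Cxcl12 was lower than capillary on thinned cells (-0.87, edgeR adjusted p = 5.34e-13). Those cells were classed anew, which left 76 and 448 arterial cells. Library 1, with few cells, gave differences of its own size, -5.99 for venous Cxcl12 and 0.28 for venous Cxcl1. Its depth gives no size for lymphatic Cxcl1, Cxcl9 and Cxcl10, where 0 UMIs allow up to 12.2 CPM each. Thinned and other-threshold Gbp states of lymphatic and arterial cells could not be fitted, with under 10 cells in a sum.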
